A study of Rattus norvegicus with 12 samples.

Results

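The 10 genes P4ha1, Slc2a1, Ero1a, Mxi1, Bnip3, Slc16a3, Vegfa, Adm, Ddit4 and Ndrg1, were examined as targets of hypoxia-inducible factors that are not enzymes of glycolysis. All probe sets that carry a member as their only gene symbol in the platform annotation were taken, 14 probe sets for 10 genes, among 20347 probe sets for 13810 genes with 1 symbol. RNA came from mucosal scrapings of rat jejunum of a high Fe and a low Fe group, with 3 samples in each. By their titles, all 6 were hybridised to Affymetrix array 230A and again to its companion 230B, a second collection of probe sets. The labels of all samples give 12 weeks, without saying whether this is an age or a time on diet, and those of the 230A samples name iron deficiency and anemia as keywords. They do not give strain, sex or diet, nor whether a sample is 1 rat or a pool. The titles number the samples of each iron level as Group 1 to 3, called replicates 1 to 3 in this text. A p-value here thus speaks of the spread among these samples, and that spread could be technical. On 230A, absorptive enterocyte markers were bright, with mean signals from 3469 for Slc5a1 to 17906 for Fabp1 over 6 marker genes.

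Hypoxia-inducible factors are transcription factors of an oxygen-sensitive alpha subunit and a stable partner. Prolyl hydroxylases that need oxygen and ferrous iron mark the alpha subunit for destruction, so the system responds to iron as well as to oxygen. Its targets move glucose and lactate across membranes, fold and cross-link secreted proteins, restrain growth, remove mitochondria and call in blood vessels. In the gut epithelium the factors also induce genes of iron uptake.

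Of the 10 targets, P4ha1 rose in low Fe mucosa, 2.29-fold, and was the only one past the adjusted threshold. That call was lost in most fits that leave out 1 array. Slc2a1, Ero1a, Mxi1, Bnip3 and Slc16a3 had every low Fe sample above every high Fe sample, with 1.38-fold to 1.77-fold higher levels that did not pass. Ndrg1 stood apart in the same way by 1.18-fold, Ddit4 and Adm overlapped between the groups, and Vegfa was level. Folds and log2 differences are low Fe against high Fe on the scale log2(signal + 16), and the test was limma with Benjamini-Hochberg adjustment over all tested probe sets of an array type and a threshold of 0.05. A gene is represented by its brightest tested probe set on 230A, called its first probe set. The second probe sets of Ero1a, Mxi1, Vegfa and Ndrg1 overlapped between the groups, with log2 differences of 0.06, -0.36, -0.50 and -0.61.

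On 230A, 9 of 9519 tested probe sets passed (0.0945%), 8 of them higher in low Fe (0.084%). Among the 7051 named genes of 230A taken by their brightest probe set, 0.0709% passed as higher, and among the 9 members tested 1 did. At an unadjusted limma p of 0.05, 6 of the 9 were higher, against 3.36% of the named genes. The groups did not overlap, with low Fe above, for 7 of the 9, against 5.94%. All 9 log2 differences lay above 0, the lowest at 0.004 for Vegfa, with a median of 0.48. Of the named genes 49.6% lay above 0, and the median over all named genes was 0.002. With second probe sets included, 10 of the 13 tested member probe sets lay above 0, where 46.9% of tested probe sets on 230A and 45% on 230B did. The list was drawn up with earlier results of these samples known, so these counts are no independent evidence of its direction. Without low Fe replicate 3, whose RNA stood apart as described further on, the median was 0.50. The groups of the same 7 stayed apart, which was fixed in advance, since leaving out a sample cannot make separate groups overlap. The share of all tested probe sets on 230A with low Fe above without overlap was then 8.38%, against 5.61% with all arrays.

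**Figure D1:**
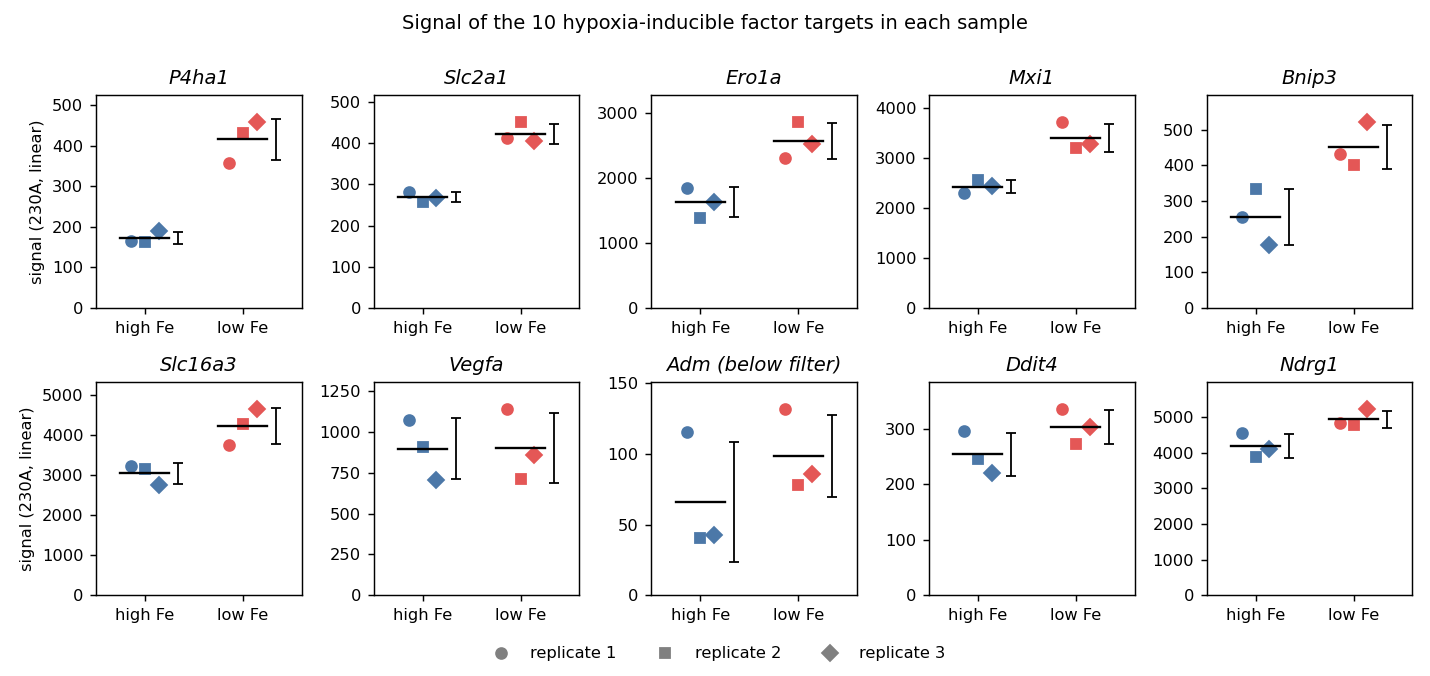
Linear signal on 230A of the first probe set of each target in the high Fe (blue) and low Fe (red) samples, with the group mean as a line and its SD as a bar. The groups are separate for P4ha1, Slc2a1, Ero1a, Mxi1, Bnip3, Slc16a3 and Ndrg1, and they overlap for Vegfa, Adm and Ddit4.

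The stretches before the transcription starts are shown for 5 targets. Hypoxia-inducible factors bind a short core, ACGTG or GCGTG, near the genes they induce. Within these stretches the 5 targets differ in that core, and whether they differ in response was not tested. Each is the 250 bases before a start from RefSeq, assembly GRCr8, 5′ to 3′ on the strand of the gene, in lower case with matches to ACGTG or GCGTG on either strand in capitals. They are P4ha1 (chr20:27844796-27845045, + strand), Slc2a1 (chr5:138002272-138002521, + strand), Bnip3 (chr1:203154963-203155212, - strand), Ddit4 (chr20:28437038-28437287, - strand) and Slc16a3 (chr10:106712078-106712327, + strand).
P4ha1: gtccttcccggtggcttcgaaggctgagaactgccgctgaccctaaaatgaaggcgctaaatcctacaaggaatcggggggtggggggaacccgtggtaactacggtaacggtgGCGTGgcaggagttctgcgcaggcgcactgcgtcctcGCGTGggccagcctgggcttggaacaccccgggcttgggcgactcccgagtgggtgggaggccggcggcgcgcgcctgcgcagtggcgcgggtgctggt
Slc2a1: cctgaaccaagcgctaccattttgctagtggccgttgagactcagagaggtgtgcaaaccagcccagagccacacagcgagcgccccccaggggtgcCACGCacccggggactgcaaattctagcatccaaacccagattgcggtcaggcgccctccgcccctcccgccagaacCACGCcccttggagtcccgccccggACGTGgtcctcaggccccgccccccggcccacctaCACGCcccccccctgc
Bnip3: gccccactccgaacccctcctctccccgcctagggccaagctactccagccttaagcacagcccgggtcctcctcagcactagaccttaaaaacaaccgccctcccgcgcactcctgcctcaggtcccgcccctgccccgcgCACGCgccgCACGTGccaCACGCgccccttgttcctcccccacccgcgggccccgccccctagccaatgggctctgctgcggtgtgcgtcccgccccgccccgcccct
Ddit4: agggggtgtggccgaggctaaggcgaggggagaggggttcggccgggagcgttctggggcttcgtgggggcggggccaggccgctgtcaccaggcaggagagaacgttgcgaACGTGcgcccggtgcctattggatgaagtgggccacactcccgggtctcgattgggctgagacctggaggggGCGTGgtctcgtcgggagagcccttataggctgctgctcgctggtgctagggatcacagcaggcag
Slc16a3: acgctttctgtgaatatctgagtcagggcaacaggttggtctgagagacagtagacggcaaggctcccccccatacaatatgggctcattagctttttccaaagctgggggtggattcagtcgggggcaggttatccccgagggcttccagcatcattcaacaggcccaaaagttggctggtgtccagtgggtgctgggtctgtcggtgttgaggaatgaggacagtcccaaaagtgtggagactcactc

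P4ha1 held 2 matches, both GCGTG on the strand of the gene, which begin 136 and 99 bases before the start. Slc2a1 held 4 matches, 3 of them GCGTG on the opposite strand, and ACGTG 51 bases before the start. Bnip3 held 4 matches within a short stretch, of which the ACGTG on each strand overlap in a palindrome that begins 99 bases before the start. Ddit4 held 1 match of each kind, and Mxi1 held ACGTG 248 bases before its start. No match lay in the windows of Slc16a3, of Adm, or at either start given for Vegfa, and bases outside the windows were not searched. The table holds windows for 8 of the 10 genes, and 5 of the 8 had a match, and so did 5 of their 9 windows, where 36.7% of 33469 windows of the same length did. Both motifs hold a CG, and the GC content was 67.6% to 74.8% in the member windows with a match and 54.0% to 60.4% in those without. The match is a description of these letters. Ddit4, with 2, overlapped between the groups, and Slc16a3, with none, did not, while neither passed the threshold. Any relation of the matches to the differences was not tested.

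P4ha1 encodes the catalytic alpha subunit of collagen prolyl 4-hydroxylase, an enzyme of the endoplasmic reticulum that needs ferrous iron itself. Its probe set 1370954_at gave signals of 164.6, 161.9 and 190.1 in high Fe replicates 1 to 3 and of 357.8, 430.7 and 457.3 in low Fe replicates 1 to 3. The lowest low Fe signal was thus well above the highest high Fe signal. The means were 172 ± 15.6 and 415 ± 51.5 (SD, n = 3 each), and the log2 difference was 1.19 ± 0.16 (SE), with a 95% interval from 0.83 to 1.55 and a limma adjusted p of 0.0422. P4ha1 ranked 9 by p among all tested probe sets of 230A, the last to pass. The call was lost without high Fe replicate 1, 2 or 3 (limma adjusted p = 0.111, 0.181 and 0.112) and without low Fe replicate 2 or 3 (0.311 and 0.218), and held without low Fe replicate 1 (0.034). It was also lost with no filter on dim probe sets (0.125) and with the replicate number as a block (0.210). The log2 difference stayed between 1.02 and 1.54 over all alternatives.

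The other subunits of the enzyme family did not pass. P4ha2, the second catalytic subunit and itself a known target, had means of 152 in high Fe and 133 in low Fe, a log2 difference of -0.24 ± 0.32 with an interval from -0.97 to 0.49. P4hb, the beta subunit that also works as a protein disulfide isomerase, gave -0.10 ± 0.14, and P4ha3, on 230B, 0.11 ± 0.37. Whether these differ from P4ha1 was not tested. P4ha2 and P4hb gave 0.10 and 0.27 after scaling to hybridization controls. That scaling lifts most log2 differences: with it, the median of all tested probe sets was 0.342 for 230A and 0.143 for 230B. Both values were under the 230A median, so their sign is no sign of a rise, and scaled values given below are to be read against these medians. On 230A the mean log2 control signal was 10.26 in high Fe replicate 2 and 9.226 to 9.517 in the other samples.

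Slc2a1 encodes GLUT1, a glucose transporter that works at basal glucose levels. Its signals were 282.4, 258.3 and 267.1 in high Fe replicates 1 to 3 and 412.8, 450.6 and 405.5 in low Fe replicates 1 to 3. Both groups were tight, with means of 269 ± 12.2 and 423 ± 24.2 (SD, n = 3 each), and they lay far apart. The log2 difference was 0.62 ± 0.14, with a 95% interval from 0.31 to 0.93 that was taken without regard to the number of probe sets, and it did not pass (limma adjusted p = 0.365). Of the transporters that enterocytes use to take up dietary sugar, none passed and the groups overlapped for all 3. Slc2a5, the fructose transporter GLUT5, gave -0.68 ± 0.25. Slc2a2, the GLUT2 transporter, gave -0.21 ± 0.15 and Slc5a1, the sodium-glucose cotransporter, -0.08 ± 0.35. After scaling to hybridization controls they gave 0.16 and 0.29, still under the median of all tested 230A probe sets. All 3 had their lowest signals in the same 3 samples, those of lowest RNA 5'/3' ratio described further on. Blocked by that ratio, Slc2a5 gave -0.48, Slc2a2 -0.12 and Slc5a1 0.25, and the part of RNA quality was not tested.

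Slc16a3 encodes MCT4, a monocarboxylate transporter that exports lactate. Its signals were 3219, 3159 and 2742 in high Fe replicates 1 to 3 and 3738, 4266 and 4636 in low Fe replicates 1 to 3. Every low Fe sample was above the high Fe samples, and the difference was small against that of P4ha1. The log2 difference was 0.47 ± 0.13, with an interval from 0.17 to 0.76 (limma adjusted p = 0.523). Slc16a1, which encodes the related transporter MCT1, gave 0.02 ± 0.16, and Bsg, their shared chaperone basigin, 0.14 ± 0.11.

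Ero1a encodes an oxidase of the endoplasmic reticulum that recharges protein disulfide isomerase, and so supports disulfide bonds in secreted proteins. The first probe set, 1389297_at, gave 1851, 1389 and 1630 in high Fe replicates 1 to 3 and 2308, 2853 and 2528 in low Fe replicates 1 to 3. All low Fe signals were the higher ones, with a log2 difference of 0.66 ± 0.15 and an interval from 0.33 to 0.99 (limma adjusted p = 0.367). The mean of both its probe sets differed by 0.36 ± 0.15. Its paralog Ero1b gave -0.25 ± 0.22, and 0.08 after scaling to hybridization controls.

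Mxi1 encodes a repressor that competes with Myc for its partner Max. The first probe set, 1372093_at, gave 2293, 2550 and 2437 in high Fe replicates 1 to 3 and 3711, 3199 and 3272 in low Fe replicates 1 to 3. The groups did not overlap, and the log2 difference was 0.48 ± 0.12, with an interval from 0.21 to 0.75 (limma adjusted p = 0.488). The mean of both its probe sets differed by 0.06 ± 0.32. Among its relatives of the Mxd family, Mxd4 gave -0.62 ± 0.30 and Mxd1 -0.16 ± 0.21 (0.21 after scaling to hybridization controls), and Mnt, a further Max partner, gave 0.29 ± 0.16. None of these passed. Mxd4 and Mxd1 were also lowest in the samples of lowest 5'/3' ratio, and blocked by it they gave -0.35 and 0.03.

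Bnip3 encodes a receptor of the mitochondrial outer membrane that brings mitochondria to autophagy. Its signals were 254.1, 334.9 and 176.5 in high Fe replicates 1 to 3 and 432.8, 401.1 and 520.3 in low Fe replicates 1 to 3. The samples of each group were spread widely, and the groups still did not overlap. The log2 difference of 0.82 ± 0.23 was the second largest among the members, with an interval from 0.31 to 1.33 (limma adjusted p = 0.523). Over the fits that leave out 1 array it ranged from 0.59, without high Fe replicate 3, to 1.03, without high Fe replicate 2. Bnip3l, also called NIX, its paralog with the same role, had means of 2065 and 2845, a log2 difference of 0.48 ± 0.16 without overlap between the groups that did not pass (limma adjusted p = 0.680).

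**Figure D2:**
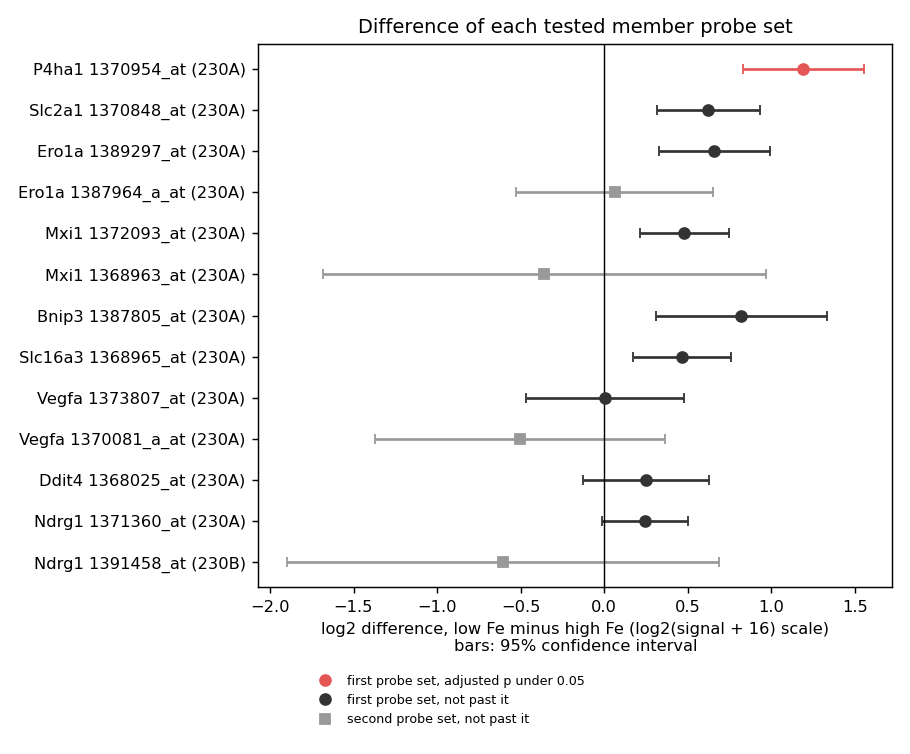
Log2 difference, low Fe minus high Fe, of each tested member probe set with its 95% confidence interval. P4ha1 (red) passed the adjusted threshold at 1.19, the first probe sets of Slc2a1, Ero1a, Mxi1, Bnip3 and Slc16a3 have intervals above 0, and the second probe sets (squares) of Mxi1, Vegfa and Ndrg1 have wide intervals around 0.

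Ndrg1 encodes a stress response protein of differentiated epithelium whose transcript is known to rise when cells are given iron chelators. The first probe set, 1371360_at, gave 4544, 3878 and 4113 in high Fe replicates 1 to 3 and 4838, 4766 and 5215 in low Fe replicates 1 to 3. The groups were separate by a small step between high Fe replicate 1 and low Fe replicate 2. The log2 difference was 0.24 ± 0.11, with an interval from -0.02 to 0.50 (limma adjusted p = 0.750). Its paralogs Ndrg2, Ndrg3 and Ndrg4 gave -0.30 ± 0.24, 0.38 ± 0.20 and -0.20 ± 0.29. Scaled to hybridization controls, Ndrg2 and Ndrg4 gave 0.05 and 0.12, under the median of all tested 230A probe sets.

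Ddit4 encodes REDD1, an inhibitor of mTOR complex 1 that many stresses induce. Its signals were 296.0, 245.4 and 219.6 in high Fe replicates 1 to 3 and 334.6, 272.6 and 302.4 in low Fe replicates 1 to 3. High Fe replicate 1 lay above low Fe replicate 2, so the groups overlapped, and the log2 difference was 0.25 ± 0.17, with an interval from -0.13 to 0.62 (limma adjusted p = 0.801).

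Vegfa encodes the endothelial growth factor that leads blood vessel growth under hypoxia. The first probe set, 1373807_at, gave 1077, 910.8 and 707.1 in high Fe replicates 1 to 3 and 1139, 714.2 and 859.0 in low Fe replicates 1 to 3. The samples interleaved: the highest was a low Fe sample, and the lowest a high Fe one. The log2 difference was 0.004 ± 0.21, with an interval from -0.47 to 0.48 (limma adjusted p = 0.998). Vegfb and Vegfc, growth factors of the same family, gave 0.10 ± 0.23 and -0.26 ± 0.16, and the receptor Kdr, on 230B, -0.04 ± 0.30. Vegfc and Kdr gave 0.09 and 0.14 after scaling to hybridization controls, neither above the median of all tested probe sets of its array type.

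Adm encodes adrenomedullin, a peptide that widens vessels and guards the epithelial barrier. Its signals were 115.3, 40.4 and 42.8 in high Fe replicates 1 to 3 and 131.6, 78.3 and 85.8 in low Fe replicates 1 to 3. High Fe replicate 1 lay among the low Fe samples. Its mean of 82.4 was under the filter boundary, a signal of 106 on 230A, so it was not tested, and its log2 difference was 0.57. In the fit with no filter it had an SE of 0.37 and a limma adjusted p of 0.832. Ramp1 and Ramp2, coreceptor subunits for its receptor, gave 0.24 ± 0.18 and 0.18 ± 0.17. Adm was the only member left out by the filter: on 230A the other member probe sets had group means of at least 172 in high Fe and 179 in low Fe.

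Ero1a, Mxi1, Vegfa and Ndrg1 had a second probe set each, and none of the second probe sets repeated the pattern of the first. For Mxi1, 1368963_at gave 247.7, 703.2 and 592.7 in high Fe replicates 1 to 3 and 881.2, 369.7 and 142.6 in low Fe replicates 1 to 3, a log2 difference of -0.36 ± 0.59. For Vegfa, 1370081_a_at gave 159.9, 348.0 and 234.6 in high Fe and 293.6, 148.0 and 95.2 in low Fe, a log2 difference of -0.50 ± 0.38. For Ndrg1, 1391458_at on 230B gave 1560, 3074 and 2661 in high Fe and 3351, 1879 and 564.3 in low Fe, a log2 difference of -0.61 ± 0.57. In each of these, the lowest signals were those of low Fe replicates 2 and 3 and high Fe replicate 1, with low Fe replicate 3 the lowest of all. For Ero1a, 1387964_a_at gave 137.3, 236.9 and 181.2 in high Fe and 246.0, 206.2 and 133.4 in low Fe, a log2 difference of 0.06 ± 0.26, with low Fe replicate 3 again lowest. None of the 4 passed (limma adjusted p from 0.696 to 0.977).

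The same samples had the lowest 5'/3' signal ratios of control transcripts, a sign of RNA and target quality. On 230A the beta-actin ratio was 0.62 in high Fe replicate 1, 0.591 in low Fe replicate 2 and 0.0539 in low Fe replicate 3, and 0.737 to 0.836 in the other samples. On 230B it was 0.499, 0.64 and 0.0473 in these samples and 0.779 to 0.896 in the others. These 3 samples were also the lowest by the GAPDH ratio, at 0.794 to 0.811 on 230A against 0.876 to 0.922. Of the 4 second probe sets, 3 had these samples as their lowest, and of the 9 first probe sets 0 did, where 11.9% of tested probe sets on 230A and 8.98% on 230B did. The part of RNA quality in the low signals of the second probe sets was not tested.

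The first probe sets were also compared among samples alike in the GAPDH ratio, as values without a test. The samples of lower GAPDH ratio were not alike in the beta-actin ratio on 230A. It was 0.0539 in low Fe replicate 3, 0.591 in low Fe replicate 2 and 0.62 in high Fe replicate 1. Among the 3 samples of lower ratio (1 from high Fe, 2 from low Fe) the log2 differences were 1.35 for P4ha1, 0.57 for Slc2a1, 0.53 for Ero1a, 0.49 for Mxi1, 0.81 for Bnip3 and 0.46 for Slc16a3. Among the 3 of higher ratio (2 from high Fe, 1 from low Fe) they were 0.97, 0.62, 0.61, 0.57, 0.79 and 0.34 in the same order. The 6 targets, and Ndrg1 (0.13 and 0.28), were higher in low Fe within both sets. That sign was fixed in advance for them, since their groups did not overlap over all samples. Vegfa (-0.45 and 0.50) and Ddit4 (-0.04 and 0.50) changed sign between the sets, and Adm did as well (-0.42 and 1.36).

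**Figure D3:**
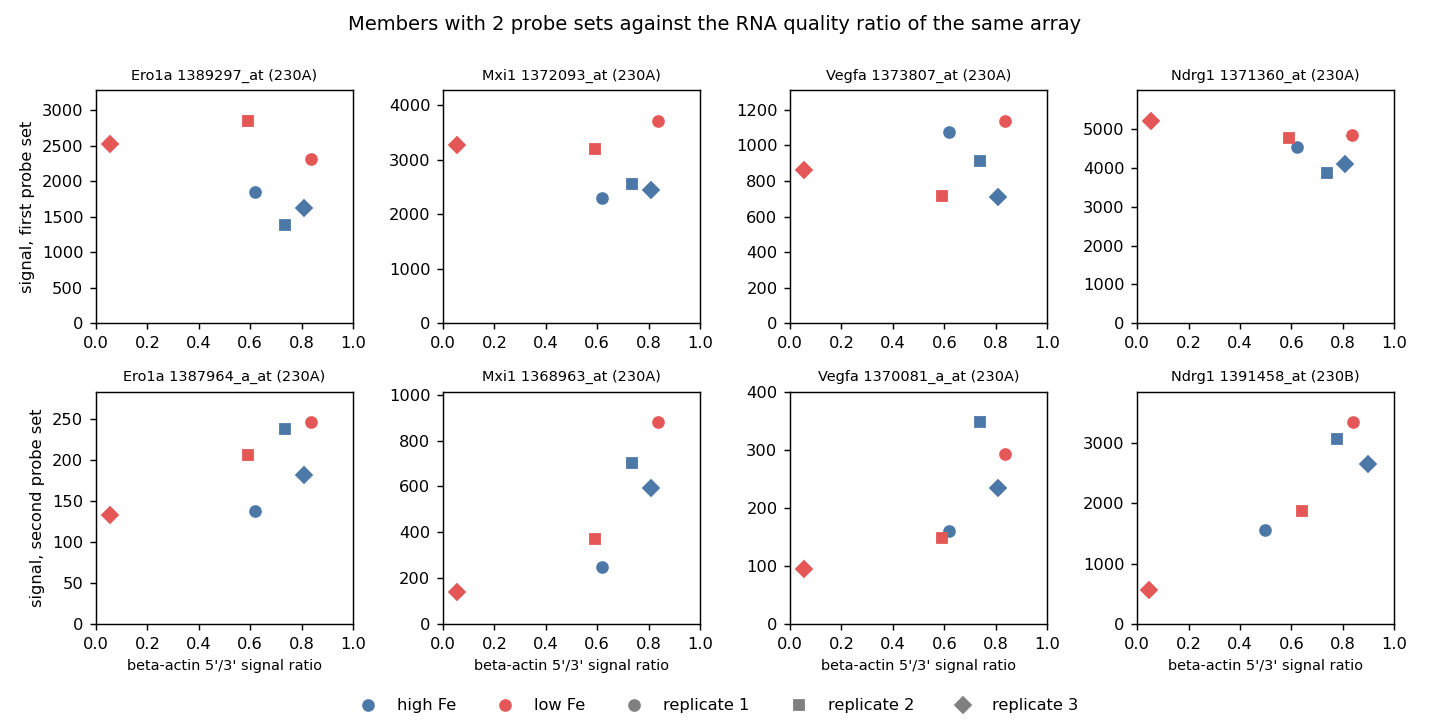
Signal of the first (top) and second (bottom) probe set of Ero1a, Mxi1, Vegfa and Ndrg1 in each sample against the beta-actin 5'/3' ratio of the same array. In the bottom row low Fe replicate 3 (red diamond), with a ratio near 0.05, is the lowest sample for all 4 genes, while in the top row it lies among or above the other samples.

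Across all 6 arrays the 9 first probe sets correlated with each other at a median Pearson r of 0.757 over 36 pairs, a value that holds the difference between the groups. After the group means were taken out the median r was 0.10, with pairs from -0.883 (Ero1a with Mxi1) to 0.949 (Vegfa with Ddit4), and 22 of the 36 lay above 0. Slc2a1 with Ero1a (0.871) and Bnip3 with Slc16a3 (0.671) were further pairs that deviated the same way. Over 3 samples a group, and with arrays shared by all genes, these are descriptions only.

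The genes whose signals were most like those of a target over the 6 arrays were taken among the other 7050 named genes of 230A. Iron uptake genes were among them: Tfrc, the transferrin receptor, was the nearest to P4ha1 (r = 0.988), and Cybrd1, the brush border ferric reductase, and Slc11a2, the ferrous iron importer, followed Dcaf17 (r = 0.998) as the nearest to Slc2a1 (r = 0.995 and 0.994). The further neighbours were Tagln2 and Smpd2 for P4ha1, Smim3, Zfand6 and Mylk for Ero1a, Ogfr, Ier3 and Gabrr2 for Mxi1, Tlcd3b, Tmem69 and Dync1i2 for Bnip3, and Snx3, Tuba4a and Chchd3 for Slc16a3. An r over 0.9 was common with 6 arrays in 2 groups: 44 to 114 genes reached it for each of these targets.

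Among the factors and their regulators, 0 of 7 tested genes passed. Egln3, a prolyl hydroxylase that is itself a target, had means of 1075 and 2138, a log2 difference of 0.99 ± 0.14 (limma adjusted p = 0.0548). It passed without high Fe replicate 1 (0.0392), with the dimmest 60% left out (0.0449), after quantile normalization (0.0429) and with robust eBayes (0.0426), and its limma adjusted p reached 0.344 over the alternatives. Hif1a, the alpha subunit of factor 1, had means of 1913 and 1050 without overlap, a log2 difference of -0.87 ± 0.17 (limma adjusted p = 0.209). It passed as lower without low Fe replicate 1 (0.0345), and its limma adjusted p was up to 0.904 over the alternatives. A dim second Hif1a probe set, with means of 22.6 and 60.3, was under the filter and pointed the other way (0.93). Epas1, the alpha subunit of factor 2, gave 0.43 ± 0.15 by its first probe set (limma adjusted p = 0.681) and -0.53 ± 0.35 by its second (limma adjusted p = 0.798), which was lowest in the samples of lowest 5'/3' ratio. By unadjusted p, 2 of the 7 were higher and 1 lower, where 4.28% and 3.50% of 9802 named genes over both array types were.

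Other targets that are not on the list of glycolytic enzymes gave a smaller shift. Among them, Bnip3l and P4ha2 are also counted with the paralogs below. Of 26 tested, 0 passed, 17 lay above 0 and the median log2 difference was 0.15. Their groups did not overlap, with low Fe above, for 7 genes, where 7.03% of all named genes did. The smallest p belonged to Mif, a cytokine (0.92 ± 0.21), Bnip3l (0.48 ± 0.16) and Angptl4, an inhibitor of lipoprotein lipase (-0.55 ± 0.20). The glycolytic enzymes that the factors induce centred on 0: of 10 tested, 0 passed, 5 lay above 0 and the median was 0.01. Pgk1, Pfkl and Aldoa had the smallest p among them, with 0.26 ± 0.12, 0.59 ± 0.29 and 0.15 ± 0.11. Scaling to hybridization controls moved the median of all tested probe sets on 230A from -0.015 to 0.342. With it, the medians of the targets examined here, of the other targets and of the glycolytic enzymes were 0.85, 0.51 and 0.37. The lists were chosen with earlier results of these data known, and differences between them were not tested.

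Among these lists, the iron and copper genes that the factors can induce had the highest median, 1.79, and 4 of 6 rose, where 0.051% of all named genes passed as higher. The 4 were Slc11a2 (2.19), Cybrd1 (3.91), Tfrc (2.74) and Hmox1 (1.31), the heme oxygenase. Hmox1 did not pass with no filter (limma adjusted p = 0.0737), nor without high Fe replicate 2 or 3 (0.0586 and 0.113) or low Fe replicate 2 or 3 (0.190 and 0.139), and the other 3 passed in all these fits. Paralogs, receptors and partners of the targets gave 0 of 31 past the threshold, with 12 above 0 and a median of -0.10, and Bnip3l, Slc2a5 and Mxd4 had the smallest p. Ddit4, Vegfa, Adm and Ero1a are also known to respond to stress of the endoplasmic reticulum or to amino acid lack. Of 15 tested genes of those responses 0 passed, with 8 above 0 and a median of 0.001. Herpud1 (-0.25 ± 0.14), Chac1 (-0.26 ± 0.16) and Xbp1 (0.17 ± 0.13) had the smallest p. Scaled to hybridization controls, Herpud1 and Chac1 gave 0.12 and 0.09, under the median of all tested 230A probe sets.

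**Figure D4:**
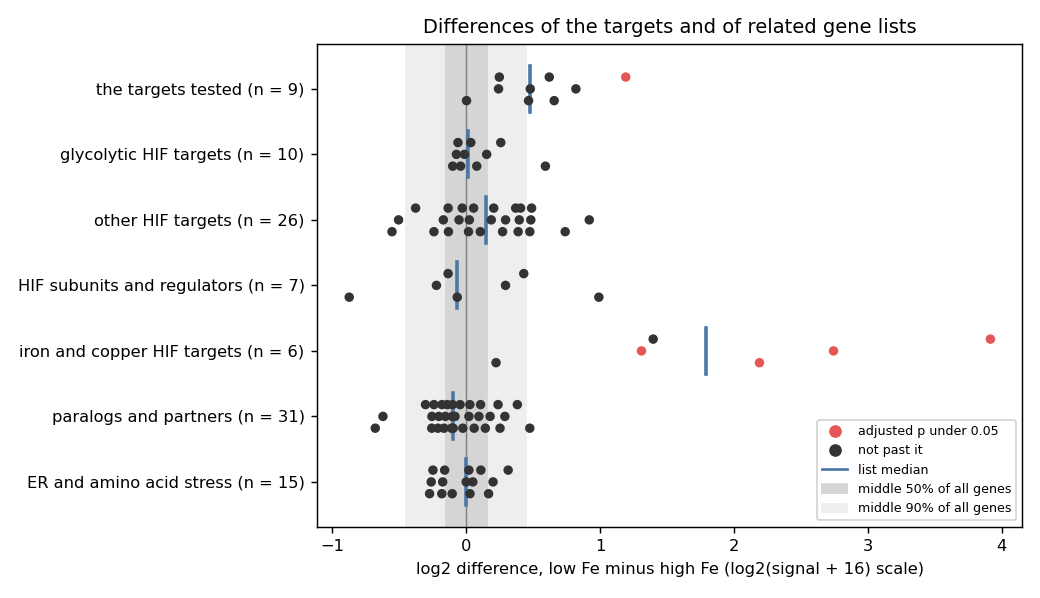
Log2 difference, low Fe minus high Fe, of each tested gene of the targets and of 6 related lists, with the list median in blue and the middle 50% and 90% of all named genes as grey bands. The targets centre on 0.48 and the iron and copper genes on 1.79, while the glycolytic enzymes centre on 0.01.

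The summed signals of some markers of other cells of the mucosa were apart between the groups, though 0 single markers passed the threshold (1, Smtn of smooth muscle, after scaling to hybridization controls). Scrapings hold several cell types, and fewer cells of a type cannot be told apart from less RNA per cell. The summed signals of 8 smooth muscle markers on 230A were 3505 to 4211 in high Fe and 4523 to 5928 in low Fe, and all 5 tested lay above 0. Most of that sum was Mylk, at 2436 to 2926 and 3391 to 4013. Those of 7 markers of cycling crypt cells were 1739 to 2079 and 2695 to 4108, with 5 of 6 tested above 0. Most of it was Pcna, at 1000 to 1068 and 1737 to 2686, while Birc5, Mcm2 and Ccnb1 differed by 0.01, -0.16 and 0.22. Mki67 and Top2a did not pass, and without 1 array they gave 0.51 to 0.96 and 0.30 to 0.94. The median of the list was 0.37, and 0.06 without low Fe replicate 2. Those of 4 red cell markers were lower in low Fe, at 985 to 1304 and 775 to 969, most of it Hbb, at 636.2 to 1016.5 and 511.0 to 606.0. The sums of 6 enterocyte markers overlapped, at 59926 to 101111 and 63509 to 82973, as did those of 5 endothelial markers, at 278 to 315 and 245 to 321, and those of stromal, immune and goblet or Paneth cell markers. No marker of these lists was listed at 0 in any sample. Their part in the differences of the targets was not tested.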

How the data were processed

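Expression was measured on Affymetrix rat arrays 230A and 230B in 6 samples. The deposited tables hold 1 linear signal intensity per probe set and array, and no source used here names the software behind them. By their values, the authors' arrays share a mean, trimmed by 2% on both sides, of 500.1 (230A) or 500.2 (230B), so levels are compared within a type only. Array medians were 154 to 176 and 259.5 to 302.6, and 6 arrays a type limit the precision. The members and lists were chosen with earlier results of these data known.

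Gene names came from the platform annotation, updated through Entrez identifiers to RefSeq (assembly GRCr8, 12748 and 7524 probe sets matched); probe sets with several symbols were not named. Values were taken as log2(signal + 16). Dropping the dimmest 40% by mean log2 value left 9519 and 9165 probe sets. Each array type was fitted on its own, two-sided, by lmFit and eBayes (trend on) of limma 3.58.1 under R 4.3.3. Intervals are 95% moderated ones, and means and SDs are of linear signals. All members were named, and from each related list the genes past the threshold and the 3 with the smallest p, plus paralogs of a member and genes most like a member by Pearson r. The test was run on simulated data first. Alternatives changed the offset, filter, scaling, variance model, blocks, threshold and the arrays kept.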

Additional observations from a re-analysis of the deposited data

How the results depend on the processing

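The test on 230A called 9 probe sets, 33 after scaling to hybridization controls, 14 when blocked by GAPDH ratio set, 15 at an adjusted p of 0.1, and 5 to 21 without 1 array (21 without low Fe replicate 1, 5 without low Fe replicate 2). On 230B it called 0 by limma, with 932 of 9165 at an unadjusted p of 0.05, and 4 after scaling to hybridization controls. Of the members, 1 passed; 0 passed with no filter, and 0 to 1 without 1 array (1 only without low Fe replicate 1). High and low Fe samples share replicate numbers. Deviations of same-numbered samples correlated at -0.356 to -0.149 on 230A and -0.265 to -0.0993 on 230B. Each number joins a sample of the lower GAPDH ratio set with one of the higher set, so these values cannot decide whether samples were paired. With the replicate number as a block, 4 probe sets on 230A and 0 members passed (limma adjusted p = 0.210 for P4ha1).

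Signs that turned belonged to members that did not pass: the second Ero1a probe set gave -0.12 to 0.29 without 1 array (-0.12 when high Fe replicate 1 was dropped, -0.11 for low Fe replicate 1). The second Mxi1 probe set gave 0.0023 after scaling to hybridization controls, 0.17 with the ratio sets as a block and -0.98 to 0.27 without 1 array, and that of Ndrg1 gave -1.17 to 0.10, both highest without low Fe replicate 3. Vegfa gave -0.0035 after quantile normalization, -0.17 to 0.16 without 1 array (-0.16 when high Fe replicate 3 was dropped, -0.17 for low Fe replicate 1) and -0.25 as the mean of its probe sets. The cause was not tested. The first probe sets of the other tested members kept their sign and their side of the threshold under all alternatives, P4ha1 excepted for the threshold. Where the groups did not overlap, the sign could not turn when 1 array was left out. As the mean of its probe sets, Mxi1 gave only 0.06 and Ero1a 0.36. Adm kept its sign under the alternatives in which it could be fitted.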
